A study of Mus musculus with 96 samples.

Results

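The 9 genes described here carry the survival signal of erythropoietin and the cell death machinery that it holds in check: Epor, Jak2, Stat5a, Stat5b, Bcl2l1, Mcl1, Bcl2l11, Bid and Casp8. They were chosen by symbol, and all 9 were among the 24321 gene symbols of the expression table. Erythropoietin binds a dimer of its receptor, Epor, whose attached kinase Jak2 then phosphorylates the transcription factors Stat5a and Stat5b. In red cell progenitors this signal is known to maintain Bcl2l1, which encodes the anti-apoptotic protein Bcl-xL, and Mcl1 is another anti-apoptotic member of the same family. Bcl2l11 encodes Bim and Bid encodes a second protein of the BH3-only type, both of which promote apoptosis, and Casp8 is the initiator caspase of death receptors that cleaves Bid.

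The data are single-cell RNA-seq values of 96 cells of murine marrow. The labels call every cell an erythroid precursor, with genotype Rpl11 +/lox and a C57BL/6 background, and the stages are said to run from the burst-forming unit-erythroid to the basophilic erythroblast. Rpl11 codes for a component of the ribosome's large subunit. All cells shared this genotype and no wild-type cells were analysed here. The sources used here give no recombinase for the lox allele, no age of the mice and no animal for any cell. Cells were captured on the Fluidigm C1 system and amplified with SMART-Seq chemistry. The cells were therefore treated as 1 sample. All differences below are between groups of cells within that sample, given by size and without a test.

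Levels are in RPKM, which counts reads relative to transcript length and to the mapped reads of a cell. Of the 96 cells, 69 listed at least 1000 genes at 1 RPKM or more and were analysed. They were grouped by Hba-a1, an alpha-globin gene that rises as red cell precursors mature, and by Mpo, the myeloperoxidase gene of granulocyte and monocyte precursors. The Mpo-high group had Mpo at 1000 RPKM or more (9 cells, 1543 to 18579 RPKM). The others were called globin-low under 10000 RPKM of Hba-a1 (3 cells), globin-mid from there to 200000 RPKM (9 cells) and globin-rich at 200000 RPKM or more (43 cells). The cells on either side of the lower limit had 5748 and 22055 RPKM of Hba-a1, those at the upper limit 180178 and 212180 RPKM, and the highest Mpo value below its limit was 371 RPKM. Another 5 cells met a marker list of another lineage (3 monocyte or macrophage, 1 mast cell or basophil, 1 T or NK cell) and were kept apart.

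The label of erythroid precursor was checked against marker lists, each met by a cell in which 50% of the list or more, and no fewer than 3 genes, reached 10 RPKM. Hba-a1 is itself on the erythroblast list and Mpo on the neutrophil list, so these lists are not independent of the grouping. Cells of the globin groups could not meet another lineage's list, because such cells had been kept apart. The erythroblast list was met by 43 of 43 globin-rich, 9 of 9 globin-mid and 2 of 3 globin-low cells, and by 0 of 9 Mpo-high cells. The neutrophil list was met by 5 and the monocyte or macrophage list by 6 of the 9 Mpo-high cells, and 0 of the 69 cells met the lists for stroma or endothelium, stem or multipotent cells, B cells or megakaryocytes. The 1 globin-low cell outside the erythroblast list, cell 68, had 3 of 16 measured erythroblast markers and listed Plac8, a gene of myeloid and multipotent progenitors, at 3843 RPKM, so counts of calls against globin-low cells are also given without it. Estimated depth was 6540000 reads at the median of the 69 cells (185000 to 11700000). The median number of genes at 1 RPKM or more was 5349 in globin-low, 3793 in globin-mid and 1627 in globin-rich cells, and 4900 in Mpo-high cells. Rpl11 was detected in 50 of the 69 cells with a median of 109 RPKM. Capture of more than 1 cell in a chamber was not assessed, and fewer transcripts per cell and a smaller share of total RNA cannot be told apart in RPKM.

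The promoters of 4 of the members are shown because Epor was still in most globin-rich cells and Bid and Casp8 were in few of them, and because they and Bcl2l1 hold the motif of GATA factors, the family of the erythroid regulator Gata1. Each sequence runs from 250 bases before to 50 bases after a gene start in RefSeq's GRCm38.p6 annotation, which is another build than the mm9 of the expression table. Capitals mark the motif, searched on both strands as AGATAA or as AGATAG or with T for the first letter of either, and no match overlapped another.
Epor (chr9:21963527-21963826, minus strand): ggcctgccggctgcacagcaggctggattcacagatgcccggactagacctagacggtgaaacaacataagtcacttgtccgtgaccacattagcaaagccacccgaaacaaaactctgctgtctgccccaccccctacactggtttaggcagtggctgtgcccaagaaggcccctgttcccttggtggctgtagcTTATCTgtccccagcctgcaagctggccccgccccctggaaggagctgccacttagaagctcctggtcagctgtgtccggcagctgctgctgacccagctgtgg
Bcl2l1 (chr2:152828440-152828739, minus strand): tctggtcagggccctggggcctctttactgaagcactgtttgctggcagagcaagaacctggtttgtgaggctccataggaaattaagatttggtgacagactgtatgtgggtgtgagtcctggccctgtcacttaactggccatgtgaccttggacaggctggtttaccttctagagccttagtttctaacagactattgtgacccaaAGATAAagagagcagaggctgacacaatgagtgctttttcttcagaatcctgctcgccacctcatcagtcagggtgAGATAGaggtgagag
Bid (chr6:120916775-120917074, minus strand): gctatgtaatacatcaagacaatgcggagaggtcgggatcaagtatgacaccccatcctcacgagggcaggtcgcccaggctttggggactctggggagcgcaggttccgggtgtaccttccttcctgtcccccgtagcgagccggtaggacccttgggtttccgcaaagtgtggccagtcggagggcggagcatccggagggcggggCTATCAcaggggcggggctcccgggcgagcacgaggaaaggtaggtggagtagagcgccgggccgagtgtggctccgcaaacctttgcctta
Casp8 (chr1:58802252-58802551, plus strand): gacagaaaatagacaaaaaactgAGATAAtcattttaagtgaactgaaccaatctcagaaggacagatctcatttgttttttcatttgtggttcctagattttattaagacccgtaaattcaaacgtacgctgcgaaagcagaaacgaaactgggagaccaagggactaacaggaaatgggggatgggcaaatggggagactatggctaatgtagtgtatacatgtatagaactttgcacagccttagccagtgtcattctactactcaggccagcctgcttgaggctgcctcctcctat
All 9 members matched the promoter table, with 14 gene starts in all, of which 4 held a match, while 29.76% of the 32851 promoters in the table held one. The members were thus near the share of all promoters. Those shown were picked for holding a match, and a link of the motif to the levels was not tested. The match began at position -54 in Epor, at -42 in Bid and at -227 in Casp8, counted from the base before the start as -1. Bcl2l1 had matches at -41 and at 36 in 1 of its 3 promoters. The STAT motif TTCNNNGAA was in 0 of the 14 windows, against 8.298% of all promoters, and 14 windows are too few to tell 0 from that share. Gata1 itself was detected in 2 of 3 globin-low, 9 of 9 globin-mid and 33 of 43 globin-rich cells, and in 0 of 9 Mpo-high cells. The matches are descriptions of these letters and no binding was measured.

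Detection of the members differed between the globin groups. Epor was detected in 1 of 3 globin-low, 6 of 9 globin-mid and 27 of 43 globin-rich cells. For Bid the counts were 3 of 3 globin-low, 5 of 9 globin-mid and 2 of 43 globin-rich cells, and for Casp8 they were 1 of 3 globin-low, 7 of 9 globin-mid and 2 of 43 globin-rich cells. Mcl1 was the second most widely detected member of the globin-rich cells, in 18 of 43, and Bcl2l1 was in 8 of 43, while Jak2, Stat5a, Stat5b and Bcl2l11 were in 5, 1, 1 and 2 of 43. Detection means 1 RPKM or more, which at the median depth is from 11.5 reads for Epor, the shortest of these transcripts, to 34.1 reads for Stat5b. At the lowest depth, that of the cell on the T or NK list, which is in no comparison, it is from 0.326 to 0.966 of a read.

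**Figure D1:**
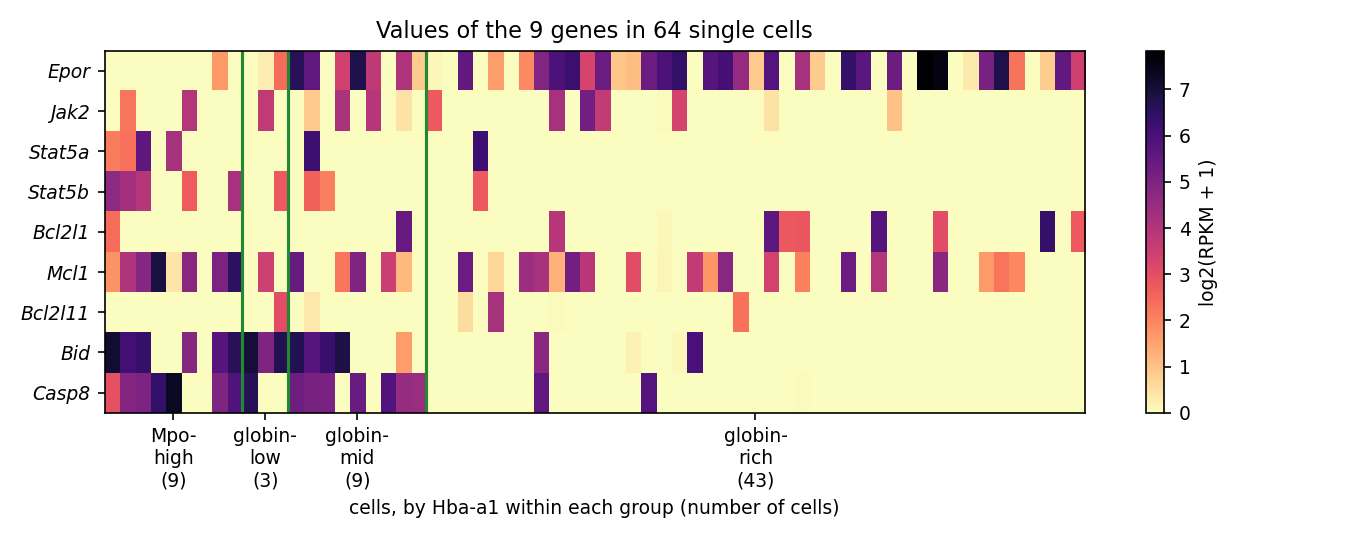
Level of each of the 9 genes (rows, as log2(RPKM + 1), darker is higher) in each of 64 cells (columns), ordered by Hba-a1 within the Mpo-high, globin-low, globin-mid and globin-rich groups; green lines part the groups. Epor fills much of the globin-rich block, in 27 of 43 cells, where Bid and Casp8 are each in 2 of 43, and Stat5a and Stat5b are seen more often at the left, among Mpo-high cells.

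The receptor gene Epor had 0, 0.207 and 4.25 RPKM in the 3 globin-low cells. In the 9 globin-mid cells its lowest, median and highest values were 0, 12.6 and 109 RPKM, and in the 43 globin-rich cells they were 0, 10.0 and 228 RPKM. The highest cells of the mid and rich groups thus lay far above the globin-low cells, but each group also held cells at 0, so the groups overlapped. The share of cells with Epor was 62.8% in globin-rich cells (exact Clopper-Pearson interval 46.7% to 77.0%), against 66.7% in globin-mid cells (29.9% to 92.5%). These intervals, like all those below, are at 95% and cover counting error only. With the globin-rich cells ranked by Hba-a1, a split added after the values were seen, Epor was in 10 of the lower 15 cells, 9 of the middle 14 and 8 of the upper 14. It was 20 of 30 in globin-rich cells with fewer than 2000 genes and 7 of 13 in those with at least 2000, so Epor was not rarer where few genes were listed. Among detected cells the median was 45.1 RPKM in globin-rich and 30.6 RPKM in globin-mid cells. Its mean log2(RPKM + 1) was 3.25 ± 2.73 in globin-rich cells and 3.44 ± 2.66 in globin-mid cells (SD over 43 and 9 cells), a difference of -0.19. That sign depended on the scaling, with 0.43 when globin genes were removed and -0.92 when every cell was rescaled to the same total. It also varied between 3 codes in the sample descriptions, here called run codes, at 1.02 in SCP-1706080, -1.45 in SCP-170608 and 0.34 in SCP-1706013. The sample titles give 1 code for all cells, SCP-1706080, and what the codes stand for was not established.

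Jak2, the kinase bound to the receptor, was listed at 12.1 RPKM in 1 globin-low cell and at 0 in the others. It was at or above 1 RPKM in 2 of 9 globin-mid cells, at 13.9 and 16.5 RPKM, and in 5 of 43 globin-rich cells, with a highest value of 35.4 RPKM. Most cells of every globin group were therefore without it at this depth. Ranked by Hba-a1, the lower 15, the middle 14 and the upper 14 globin-rich cells held 4, 1 and 0 cells with Jak2, and 0 of 14 allows a share of up to 21.4%. The highest value among the upper 14 was 0.992 RPKM, just under the limit. The median number of genes in these sets was 2677, 1594 and 1198.5, and the part of that number in the result was not tested.

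The signal transducers Stat5a and Stat5b were the rarest members of the receptor pathway in erythroid cells. Stat5a was listed in 0 of 3 globin-low cells, in 1 of 9 globin-mid cells at 74.1 RPKM and in 1 of 43 globin-rich cells at 71.9 RPKM. Stat5b was listed at 5.67 RPKM in 1 globin-low cell, at 3.27 and 5.01 RPKM in 2 globin-mid cells and at 5.72 RPKM in 1 globin-rich cell. The cells with Stat5a, cell 66 of the mid group and cell 59 of the rich group, also held Stat5b. The genes are neighbours on chromosome 11 and near-identical in part, since 15.3% of all runs of 50 bases in the Stat5a transcripts also occur in those of Stat5b, so low values of one beside the other are uncertain. Neither gene was seen in the 30 globin-rich cells with fewer than 2000 genes, which allows a share of up to 10%.

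Receptor, kinase and transducer were seldom listed in the same cell. Jak2 was in 5 and a Stat5 gene in 1 of 43 globin-rich cells, so few joint cells were possible. The counts below therefore do not show that these genes were kept apart. Of the 27 globin-rich cells with Epor, 4 also had Jak2, 0 had a Stat5 gene, and 16 had Mcl1. Of the 6 globin-mid cells with Epor, 2 had Jak2, 1 had a Stat5 gene and 4 had Mcl1. No analysed cell held Epor, Jak2 and a Stat5 gene together at 1 RPKM or more. Globin-mid cell 66 came near, with Jak2 at 0.820 RPKM beside Epor at 45.9 RPKM and both Stat5 genes. Among globin-rich cells at 1 RPKM or more, the lowest values were 5.71 RPKM for Jak2 and 5.72 RPKM for Stat5b. Below that limit, Jak2 was at 0.0219, 0.366 and 0.992 RPKM in globin-rich cells 32, 37 and 96, which all had Epor. The joint counts thus depend on the limit of 1 RPKM.

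The anti-apoptotic gene Mcl1 had 0, 0 and 9.92 RPKM in the globin-low cells. Its lowest, median and highest values were 0, 1.22 and 43.6 RPKM in globin-mid cells and 0, 0 and 39.8 RPKM in globin-rich cells. Detection was 18 of 43 globin-rich cells (41.9%, 27.0% to 57.9%) against 5 of 9 globin-mid cells (55.6%, 21.2% to 86.3%), and the values of the groups overlapped. In globin-rich cells with at least 2000 genes it was in 8 of 13, and in those with fewer genes in 10 of 30. The mean difference between globin-rich and globin-mid cells was -0.45. It was 0.57 among cells with at least 2000 genes.

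Bcl2l1, the gene of Bcl-xL, was listed at 0 in all 3 globin-low cells and in 8 of 9 globin-mid cells, the other one having 42.0 RPKM. In globin-rich cells it was detected in 8 of 43 (18.6%, 8.39% to 33.4%), with a highest value of 81.5 RPKM. These cells numbered 1 of the lower 15, 3 of the middle 14 and 4 of the upper 14 by Hba-a1. The exact intervals at the ends, 0.169% to 31.9% and 8.39% to 58.1%, overlap. Over these sets the median number of genes fell, while median estimated depth was 6490000, 7530000 and 7960000 reads. Run code SCP-1706080 gave 6, 6 and 10 of their cells. The part of gene number, depth or run code in the counts was not tested. Epor was listed in 5 of the 8. Bcl2l1 has 4 transcript entries, and in 6 of the 13 cells of the whole series with Bcl2l1 the lowest entry was below 50% of the highest.

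**Figure D2:**
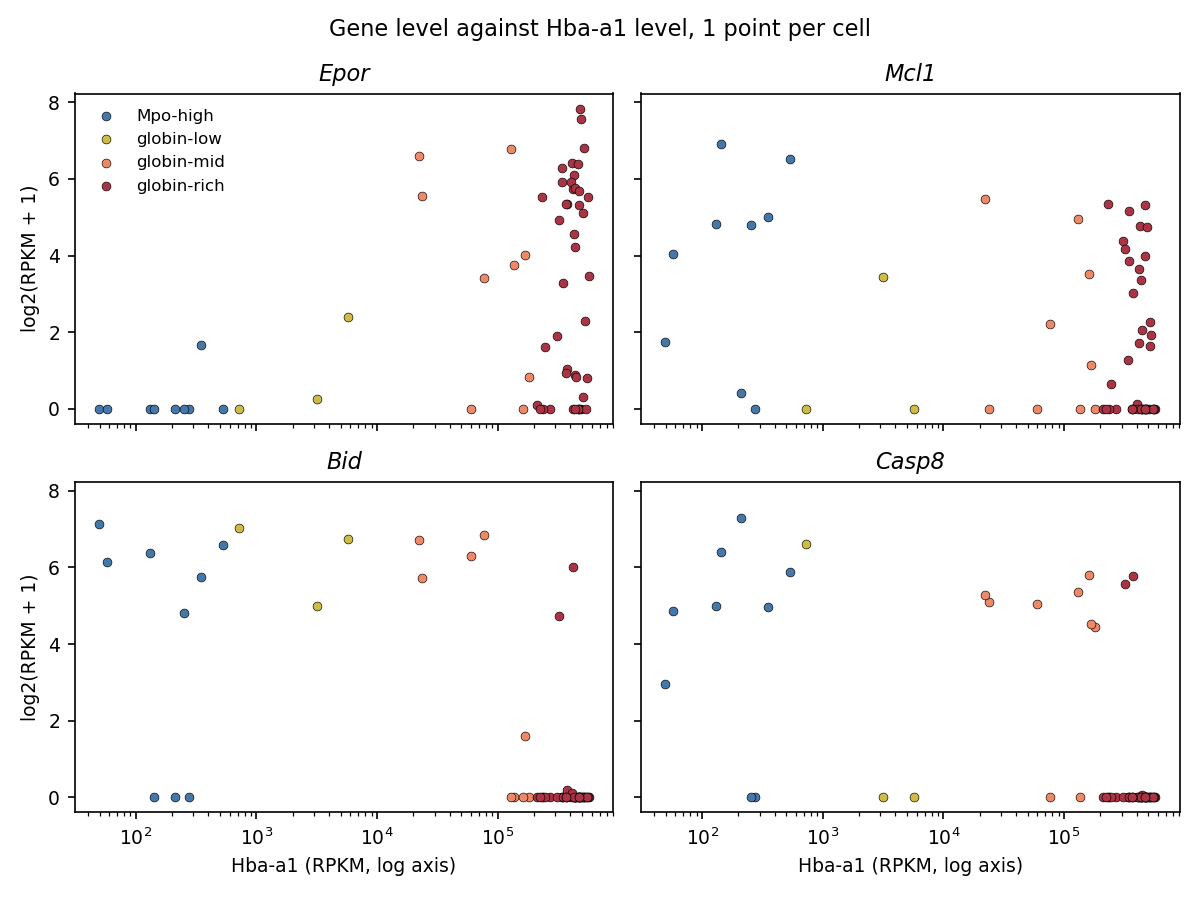
Level of Epor, Mcl1, Bid and Casp8 as log2(RPKM + 1) against Hba-a1 in RPKM on a log axis, 1 point per cell, coloured by group (9 Mpo-high, 3 globin-low, 9 globin-mid and 43 globin-rich cells). Bid is at 30.7 RPKM or more in all 7 globin-low and globin-mid cells under 100000 RPKM of Hba-a1 and at 2.05 RPKM or less in the 5 globin-mid cells above it, whereas Casp8 is still found in 4 of those 5 cells.

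Among the genes that promote death, Bid had the clearest order along globin. The globin-low cells had 30.7, 106 and 131 RPKM. Globin-mid cells had a lowest, median and highest value of 0, 2.05 and 114 RPKM, and globin-rich cells 0, 0 and 63.7 RPKM. The mid group fell into separate parts when it was split at 100000 RPKM of Hba-a1, a limit set after the values were seen. Below it, 4 of 4 cells had Bid at 52.3 to 114 RPKM, while above it 1 of 5 cells was detected, at 2.05 RPKM. Of the 4 cells below, 3 came from run code SCP-1706013 and 1 from SCP-170608, and of the 5 above, 0 and 3 came from these codes, so the split and the run code cannot be told apart for the cells of SCP-1706013. Estimated depth was 5650000 reads at the median below and 7040000 above.

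Casp8 was at 0, 0 and 97.6 RPKM in the globin-low cells, the last being cell 68. In globin-mid cells the lowest, median and highest values were 0, 32.1 and 54.3 RPKM, and in globin-rich cells 0, 0 and 54.0 RPKM. All 7 globin-mid cells with Casp8 had 21.0 RPKM or more, against 2 of 43 globin-rich cells. In the mid group it was in 3 of 4 cells below 100000 RPKM of Hba-a1 and in 4 of 5 above, where Bid was in 4 of 4 and 1 of 5. In the whole globin-rich group 1 cell held both genes.

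Bcl2l11, the gene of Bim, was detected in 1 of 3 globin-low cells (7.15 RPKM), 0 of 9 globin-mid cells, which allows a share of up to 33.3%, and 2 of 43 globin-rich cells (4.01 and 17.6 RPKM). It did not reach the minimum of detection in 10% of the 69 cells and so is in no count of calls below. Its 5 transcript entries differed, the lowest being below 50% of the highest in 5 of the 5 cells of the whole series with the gene at 1 RPKM or more.

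Globin-rich cells were next compared with globin-mid cells across all genes. A gene was called when its mean log2(RPKM + 1) differed by at least 1. Of the 8 members tested, 2 were lower in globin-rich cells, Bid and Casp8, and 0 were higher. Among all 7177 genes tested, 54.4% were lower and 1.06% higher. The median difference was -0.50 over the 8 members and -1.15 over all genes, so the count of lower members was below the background share. Bid had a mean of 0.26 ± 1.15 in globin-rich cells and 3.02 ± 3.26 in globin-mid cells, a difference of -2.77, and Casp8 had 0.27 ± 1.21 and 3.95 ± 2.28 in these groups, a difference of -3.69 (SD over 43 and 9 cells).

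Among cells with at least 2000 genes (13 globin-rich cells with a median of 2693 genes and 9 globin-mid cells with 3793), Bid differed by -2.20, Casp8 by -3.53 and Epor by -1.17. By size 3 members were thus called lower there, Epor included. The share of all genes called lower among these cells is not given here, so this count cannot be set against a background. Detection there was 2 of 13 for Bid and 1 of 13 for Casp8 in globin-rich cells, against 5 of 9 and 7 of 9 in globin-mid cells. Within run code SCP-1706080 the difference of Bid was 0, in SCP-170608 it was -1.21 and in SCP-1706013 it was -6.18. That of Casp8 was -1.97, -5.19 and -2.94 in the same order. In SCP-1706080, Bid was at 0 in all 22 globin-rich and both globin-mid cells, and these mid cells had over 100000 RPKM of Hba-a1.

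**Figure D3:**
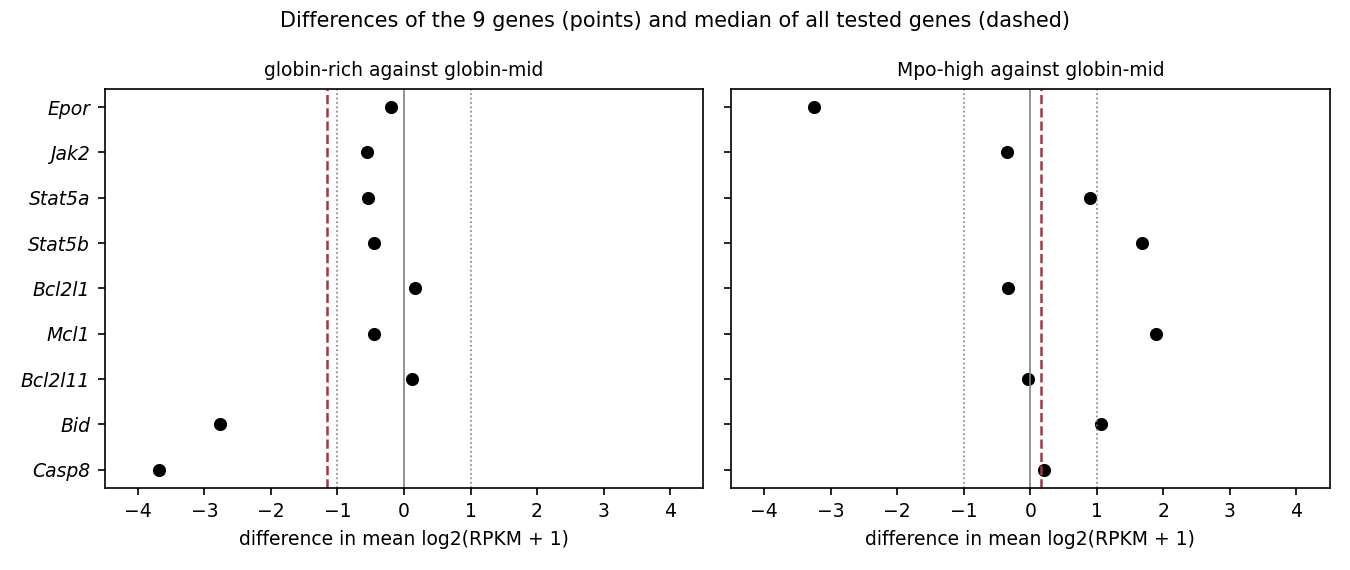
Difference in mean log2(RPKM + 1) of each of the 9 genes (points) for globin-rich against globin-mid cells and for Mpo-high against globin-mid cells; dotted lines mark differences of 1, and the dashed line is the median of the 7177 tested genes. Casp8 (-3.69) and Bid (-2.77) lie far to the left in the first panel, and Epor (-3.25) in the second.

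Against the 3 globin-low cells, globin-rich cells had 1 of 8 tested members higher, Epor, and 2 lower, Bid and Casp8. The background was 4.58% of genes higher and 64.5% lower. Epor differed by 2.36, with means of 3.25 ± 2.73 in globin-rich and 0.89 ± 1.31 in globin-low cells, and Bid by -6.00, with means of 0.26 ± 1.15 in globin-rich and 6.25 ± 1.11 in globin-low cells. Casp8 differed by -1.94, but by 0.27 without cell 68, so its direction rested on that cell. Without it Epor differed by 1.92, and the 3 lower members were Bid (-5.60), Jak2 (-1.38) and Stat5b (-1.30). Beside them, 3.53% of all genes were higher and 68.2% lower without cell 68. Bid was detected in 2 of 43 globin-rich cells, at 25.5 and 63.7 RPKM, against all 3 globin-low cells at 30.7 RPKM or more. Within run codes SCP-1706080 and SCP-170608, with 1 and 2 globin-low cells, Epor differed by 0.92 and 2.50 and Bid by -6.74 and -5.39.

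Globin-mid cells had 2 members higher than globin-low cells, Epor (2.55) and Casp8 (1.75), and 1 lower, Bid (-3.23), where 15.7% of all genes were higher and 32.4% lower. The means of Epor were 3.44 ± 2.66 in globin-mid and 0.89 ± 1.31 in globin-low cells. Without cell 68 the differences were 2.11 for Epor, 3.95 for Casp8 and -2.84 for Bid. In run code SCP-1706080, with 2 mid cells and 1 low cell, the difference of Epor was -0.09, and in SCP-170608, with 4 and 2 cells, it was 3.95.

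Mpo-high cells differed from globin-mid cells in the receptor and in Mcl1. Stat5b was also higher in them, but it reached the minimum of detection in 10% of the 69 cells only through the Mpo-high cells. Epor was at 2.19 RPKM in 1 of 9 Mpo-high cells and at 0 in the other 8, against 6 of 9 globin-mid cells. This 1 of 9 serves as the background of a cell type in which Epor is not expected, at a median depth of 4970000 reads, against 6610000 in globin-mid and 7150000 in globin-rich cells. Mcl1 had a lowest, median and highest value of 0, 26.9 and 119.9 RPKM in Mpo-high cells, against 0, 1.22 and 43.6 RPKM in globin-mid cells. Stat5b was detected in 5 of 9 Mpo-high cells, at 5.50 to 25.0 RPKM, against 2 of 9 globin-mid cells at 3.27 and 5.01 RPKM. Each Mpo-high cell with Stat5b thus had more than either mid cell, though 4 Mpo-high cells were at 0. Stat5a was in 4 of 9 Mpo-high cells, at 3.35, 4.08, 17.6 and 47.1 RPKM, against 1 of 9 globin-mid cells at 74.1 RPKM. At least 1 Stat5 gene was listed in 6 of 9 Mpo-high cells, and in 2 of 9 globin-mid and 1 of 43 globin-rich cells.

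Bid was detected in 6 of 9 Mpo-high and 5 of 9 globin-mid cells, and Casp8 in 7 of 9 of both. Bid had a lowest, median and highest value of 0, 52.4 and 138 RPKM in Mpo-high cells, against 0, 2.05 and 114 RPKM in globin-mid cells. Casp8 had 0, 30.5 and 155 RPKM in Mpo-high cells, against 0, 32.1 and 54.3 RPKM in globin-mid cells. Both groups thus overlapped for either gene, and 8 of 9 cells in each had at least 1 of them. Bcl2l1 was at 4.30 RPKM in 1 Mpo-high cell and at 0 in 8, and Bcl2l11 was at 0 in all 9. Jak2 was at 3.65 and 14.6 RPKM in 2 Mpo-high cells, against 13.9 and 16.5 RPKM in 2 globin-mid cells.

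Against globin-mid cells, a comparison added after the values were seen because the globin-low group was small, 3 of 8 tested members were higher in Mpo-high cells and 1 was lower. Background shares were 29.3% higher and 21.3% lower. Stat5a and Stat5b were detected in 3 and 5 of the 60 cells outside the Mpo-high group, under the 10% needed. They were thus tested only through the Mpo-high cells, and their values against other groups are a description. Among the other 6 tested members, 2 were higher and 1 was lower. The background shares still include other genes tested only through the Mpo-high cells, so they are not a like share for these 6. Of all 8, the higher ones were Mcl1 (1.88), Stat5b (1.67) and Bid (1.06). Epor (-3.25) was lower, with means of 0.19 ± 0.56 in Mpo-high and 3.44 ± 2.66 in globin-mid cells (SD over 9 cells each). Within run code SCP-1706080 the difference of Epor was -2.30, in SCP-170608 it was -3.53 and in SCP-1706013 it was -3.34. The last of these codes held 1 Mpo-high cell. In the same order Mcl1 differed by 2.20, 3.05 and 4.35, and Stat5b by 2.33, 2.06 and -0.70. Bid differed by -6.62 within SCP-1706013 and by 4.40 and 3.62 within SCP-170608 and SCP-1706080, so the direction of Bid was not common to the codes. Against globin-low cells, 4 members were higher in Mpo-high cells, namely Mcl1 (2.66), Casp8 (1.94), Stat5a (1.59) and Stat5b (1.28), and 1 was lower, Bid (-2.17), beside 20.3% and 29.7% of all genes. Without cell 68, Casp8 differed by 4.15 and Stat5b by 0.83. In that setting 3 members were lower, namely Bid (-1.77), Jak2 (-1.17) and Epor (-1.15), beside 41.3% of all genes.

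**Figure D4:**
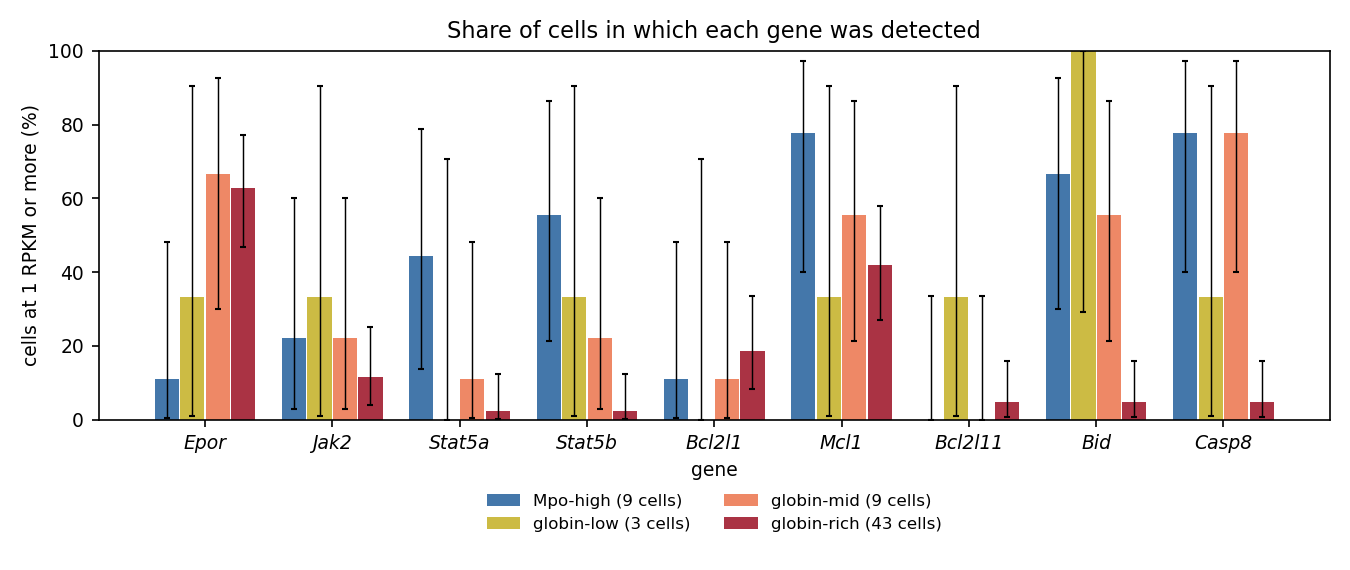
Share of cells at 1 RPKM or more (bars, in percent) for each of the 9 genes in 9 Mpo-high, 3 globin-low, 9 globin-mid and 43 globin-rich cells, with exact 95% Clopper-Pearson intervals (lines) that cover counting error only. Epor is at 11.1% in Mpo-high cells against 66.7% in globin-mid cells, and Bid and Casp8 are at 4.65% in globin-rich cells.

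Anti-apoptotic and death genes were then counted within single cells. At least 1 of Mcl1 and Bcl2l1 was listed in 1 of 3 globin-low, 5 of 9 globin-mid and 21 of 43 globin-rich cells, and at least 1 of Bid and Casp8 in 3 of 3, 8 of 9 and 3 of 43. An anti-apoptotic gene without Bid or Casp8 was seen in 0 of 3 globin-low, 0 of 9 globin-mid and 19 of 43 globin-rich cells. Another 21 globin-rich cells listed none of the 4. In Mpo-high cells 7 of 9 had an anti-apoptotic gene, 8 of 9 had Bid or Casp8, and 0 had the first without the second. These counts follow largely from how often Bid or Casp8 was listed in each group, and a pairing within cells was not tested. Of all tested genes, 54.4% were lower in globin-rich than in globin-mid cells. Cells listed a median of 3 of the 9 members in the globin-low group, 3 in the globin-mid and 2 in the globin-rich group, and 10 globin-rich cells listed none.

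Other genes of the pathway were examined through lists of non-members. Of 35 listed partners and regulators of the receptor, 22 were tested, and 9 were lower and 0 higher in globin-rich than in globin-mid cells, with a median difference of -0.42 beside -1.15 for all genes. Among the lower ones were the kinase Map2k2 (-2.36), the adaptor Grb2 (-1.76) and Jak1 (-1.70), a kinase of other cytokine receptors. Of 20 genes known to respond to erythropoietin or STAT5, 8 were tested, and 2 were lower. Ccnd3, a cyclin of G1 phase, differed by -4.05 with a median of 67.5 RPKM in globin-rich and 590.0 RPKM in globin-mid cells. Tfrc, the transferrin receptor, differed by -0.31 and was at or above 1 RPKM in 40 of 43 globin-rich cells, against 9 of 9 globin-mid cells. The STAT5 target Cish had a highest value of 83.2 RPKM in globin-rich and 116 RPKM in globin-mid cells, with a median of 0 in both, and Socs2, Socs3, Osm and Id1 were listed at 0 in all cells of the 3 globin groups. Podxl was listed in 2 globin-low cells and at 0 in all cells of the mid and rich groups.

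In the rest of the BCL-2 family, 7 of 18 genes were tested and 4 were lower in globin-rich than in globin-mid cells, with a median of -1.35. Bax, a pore-forming effector of apoptosis, differed by -4.23 and was detected in 8 of 43 globin-rich against 8 of 9 globin-mid cells. Bnip3l, a mitophagy receptor of red cell maturation, differed by -2.28 and was still detected in 35 of 43 globin-rich cells. Of 24 caspases and death receptor genes, 19 were tested, with 9 lower, 0 higher and a median difference of -0.73. Casp6, an executioner caspase, differed by -4.33 and Cycs, cytochrome c, by -3.36. Cflar, an inhibitor of Casp8, differed by -3.12 and was detected in 30 of 43 globin-rich cells at a median of 3.45 RPKM, against 9 of 9 globin-mid cells at 42.8 RPKM. The lower share in these lists, as for the members, was near or below the 54.4% of all genes.

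The same lists were set beside the 29.3% of all genes higher and 21.3% lower in Mpo-high than in globin-mid cells. Of the 22 tested partners and regulators, 9 were higher and 5 lower in Mpo-high cells, led by the phosphatase Ptpn6, which acts on Epor and other receptors (4.91, detected in 7 of 9 against 0 of 9 cells), Map2k1 (3.54), Mapk3 (3.50) and the kinase Lyn (2.66, 6 of 9 against 0 of 9). Of these 22 genes, 4 were tested only through the Mpo-high cells, Ptpn6, Map2k1 and Lyn among them, and all 4 were among the higher ones. Among 7 tested genes of other cytokine receptors 6 were higher and 0 lower, with a median of 3.05, led by Ifngr1 (5.26), Csf3r (3.44), Il2rg (3.27) and Csf1r (3.05). Of these 7 genes, 4 were tested only through the Mpo-high cells, Il2rg and Csf1r among them. The count and median of the 7 are therefore a description of the choice of genes. Of the other 3, 2 were higher, but the 29.3% of all genes still includes genes tested only through the Mpo-high cells. Csf3r and Csf1r are also on the neutrophil and monocyte marker lists. In the caspase and death receptor list 6 were higher and 3 lower, with Casp1 (4.56), Ripk3 (4.00) and Tnfrsf1a (3.25) higher and Casp6 (-4.00) lower. Of the BCL-2 family, 3 were higher and 2 lower, with Bnip3 at 3.79, Bad at 2.28, Bnip3l at -3.74 and Bax at -1.48. Among the responsive genes 4 were higher and 3 lower, including Ccnd2 (3.83) and Tfrc (-3.74). Genes tested only through the Mpo-high cells numbered 4 in the caspase list, 3 in the BCL-2 family and 1 among the responsive genes. Of them, 4, 2 and 1 were among those higher. Casp1, Ripk3, Tnfrsf1a and Bnip3 are such genes, so their values are a description.

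The 3 globin-low cells were also set against the later groups for these lists, where 64.5% of all genes were lower and 4.58% higher in globin-rich cells. Globin-rich cells had 12 of 22 tested partners lower than globin-low cells and 0 higher, with Akt1 at -3.80, Ptpn6 at -3.73 and Jak1 at -2.28. Among the responsive genes 2 were higher and 4 lower, with Myc at -5.84, Ccnd2 at -3.31 and Ccnd3 at -2.91. Of the BCL-2 family 4 were lower and 0 higher, led by Bad (-5.24), Bnip3 (-3.88) and Bax (-3.16). Of the caspase list 12 were lower and 1 higher, with Casp6 at -5.09, Htra2 at -4.08 and Birc5, a mitotic survivin gene, at 4.57. Of the cytokine receptors 2 were lower, with Ifngr1 at -6.06. Without cell 68 the lower genes numbered 15 of 22 partners, 3 of 8 responsive genes, 5 of 7 in the BCL-2 family, 9 of 19 in the caspase list and 2 of 7 receptors, beside 68.2% of all genes. Between globin-mid and globin-low cells, where 15.7% of all genes were higher and 32.4% lower, 2 partners were higher and 6 lower, 3 responsive genes higher and 3 lower, 2 BCL-2 genes higher and 2 lower, 3 genes of the caspase list higher and 6 lower, and 0 receptors higher and 3 lower. Without cell 68 the lower genes of these lists numbered 10, 3, 4, 4 and 2, beside 40.8% of all genes, and the higher ones 2, 3, 0, 2 and 0, beside 10.7%.

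Genes with the most similar pattern over the 55 globin-low, globin-mid and globin-rich cells were sought among 4239 genes by Spearman's rho of log2(RPKM + 1). The values of rho are a description, because all points share 1 sample and many values are 0. The 3 nearest to Epor were Sipa1 (0.54), Rbm4 (0.42) and Hspa4l (0.39), and Epor itself had a rho of -0.17 with the number of genes detected per cell. For Bid they were Dnajc15 (0.77), Dtd1 (0.76) and Eif2b3 (0.74), and for Casp8 Cetn2 (0.65), Tmem87a (0.64) and Kansl1l (0.62). Bid and Casp8 had a rho of 0.55 and 0.46 with the number of genes, and the part of the number of genes in their likeness to other genes was not tested. For Mcl1 the nearest were Stk24 (0.46), Exosc9 (0.41) and Atf2 (0.41), and for Bcl2l1 Sec14l1 (0.54), Rnf11 (0.47) and Dyrk3 (0.45). For Jak2, found in 8 of these cells, they were Golph3 (0.57), Rit1 (0.56) and Armc8 (0.54), and for Stat5b, found in 4, Ptpmt1 (0.62), Dnajc15 (0.61) and Apex1 (0.61).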

How the data were processed

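The table holds RPKM values made by the authors for 34899 RefSeq transcripts in 96 cells. TopHat2 version 2.0.9 and build mm9 were used, per the submitters' processing notes, and nothing used here gives other steps. Per the labels, all cells share 1 genotype, so no model or p-value was computed.

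A gene's value in a cell was that of its highest transcript entry there. Means and differences are of log2(RPKM + 1), which understates changes of low genes. Genes detected at 1 RPKM or more in at least 10% of the 69 analysed cells were tested (7177 genes). Differences of at least 1 were called. Reads per cell were estimated from the steps of low values with GENCODE transcript lengths (found for 97.6% of transcripts). The estimate recovered simulated depths, and a unit may be a read or a pair. Named genes were the members, Rpl11, from each list up to 4 non-members ranked by absolute difference and detected in 50% of a group, and the 3 nearest in pattern. Further list genes (Cish, Socs2, Socs3, Osm, Id1, Podxl, Kit) were named after their values were seen. A few genes that the rule names are not reported here. Members, lists and limits were chosen with earlier results of these data known. The sample descriptions hold 3 run codes, while titles give 1. Python 3.11.15, pandas 2.3.3, numpy 2.4.6 and scipy 1.17.1 were used. Shares have exact Clopper-Pearson intervals, and a count of 0 allows 3 counts; both cover counting error only, since amplified reads are not independent molecules. No 2 cells had identical values.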

Additional observations from a re-analysis of the deposited data

Results flagged for a closer look

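The 27 cells with fewer than 1000 genes entered no comparison, yet some listed a member well above the value of 3 reads. Epor reached 2295 RPKM in cell 10 (an estimated 630.2 reads) and 1013 RPKM in cell 42, against a highest value of 228 RPKM in the analysed cells, and was detected in 7 of 27 cells. Both cells had 133600 and 88800 RPKM of Hba-a1 and estimated depths of 156000 and 246000 reads. Bcl2l1 was at 576 RPKM in cell 28, against 81.5 RPKM at most in the analysed cells. Stat5b was at 188 RPKM in cell 42, the cell that also had Epor, and Jak2 was at 15.2 RPKM in cell 36, which listed Bcl2l1 at 73.0 RPKM. Bid and Casp8 were at or above 1 RPKM in 0 of the 27 cells, which allows a share of up to 11.1%.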

How the results depend on the processing

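No paired analysis was possible because all cells carry 1 group label and the result comes from no test. The counts of members called rest on 8 genes and on 3 globin-low cells, and the causes of the shifts below were not tested.

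In globin-rich against globin-low cells, the count of higher members, 1 as reported, was 2 with a pseudocount of 0.1, a minimum of 2000 genes, summed transcripts, globin genes removed, Hba-a1 limits of 1000 and 100000 RPKM, or without run code SCP-170608, and 0 with limits of 30000 and 300000 RPKM. The count of lower members, 2 as reported, was 4 with a pseudocount of 0.1, with cells rescaled to 1000000, with the higher limits, or with no cells set aside. In globin-rich against globin-mid cells, lower members numbered 4 with the pseudocount of 0.1, 1 with the higher limits (and 1 higher) and 0 with 3 equal sets of cells by Hba-a1. In globin-mid against globin-low cells, higher members numbered 4 with the pseudocount of 0.1, 5 with the lower limits, 0 with the higher limits and 1 with equal sets. Lower members numbered 2 with the higher limits, equal sets, no cells set aside, and without SCP-1706080 or SCP-170608. In Mpo-high against globin-low cells, lower members numbered 2 with the pseudocount of 0.1, a minimum of 2000 genes, no filter on genes, either pair of limits, and without SCP-1706080 or SCP-170608, and 3 without cell 68, while higher members numbered 2 with the higher limits. In Mpo-high against globin-mid cells, higher members numbered 5 with the higher limits or equal sets, and lower members 2 with the lower limits. Except without cell 68, the share of all genes called under these settings is not given here. A change of setting can move all genes, as rescaling did by a median of -0.52 in globin-rich against globin-low cells. The other counts therefore cannot be set against a background or read as changes of the members alone.

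Differences called as reported turned sign as follows. With limits of 1000 and 100000 RPKM, which leave 1 globin-low cell, Casp8 was at -4.05 in globin-mid and -2.47 in Mpo-high against globin-low cells, and Bid at -2.13 in Mpo-high against globin-mid cells. With limits of 30000 and 300000 RPKM, Epor was at -0.96 and Casp8 at -1.47 in globin-mid against globin-low cells. With equal sets, Casp8 was at -1.71 in the same comparison and Bid at 1.53 in Mpo-high against globin-low cells. With no cells set aside, Mcl1 was at -0.48 and Bid at 0.13 in Mpo-high against globin-low cells. Without SCP-170608, Casp8 was at 0.34 in globin-rich and Stat5b at -0.80 in Mpo-high against globin-low cells, and Bid at -0.96 in Mpo-high against globin-mid cells. Without cell 68, an alternative chosen after seeing the data, Casp8 was at 0.27 in globin-rich against globin-low cells. Some differences under 1 as reported turned sign and passed 1. With limits of 30000 and 300000 RPKM, Epor was at 1.58 in globin-rich against globin-mid cells, where it ran from -1.17 (a minimum of 2000 genes, which made 3 lower members), and Stat5a at -1.25 in globin-rich against globin-low cells. With limits of 1000 and 100000 RPKM, Jak2 was at 1.45 and Stat5b at 1.24 in globin-mid against globin-low cells. With no cells set aside, Mcl1 was at -2.81 in globin-rich and -2.37 in globin-mid against globin-low cells. Without SCP-170608, Jak2 was at 1.61 in globin-mid and 1.03 in Mpo-high against globin-low cells. Mcl1 in globin-rich against globin-mid cells, -0.45 as reported, was at 0.57 with a minimum of 2000 genes, 0.18 with the higher limits and 0.08 without SCP-1706013.

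Over all alternatives, the difference of Epor between Mpo-high and globin-mid cells stayed between -5.37 and -1.82, that of Mcl1 between 1.44 and 3.34, and that of Bid between globin-rich and globin-low cells between -9.10 and -2.55. Between globin-rich and globin-mid cells, Casp8 ran from -6.07 to -0.63, and Bid from -5.96 to -0.61, past 1 in 13 and 12 of 14 alternatives. Rescaling every cell to 1000000 moved the median of all genes by -0.52 in globin-rich against globin-low, -0.20 in globin-rich against globin-mid, -0.37 in globin-mid against globin-low and 0.38 in Mpo-high against globin-mid cells.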

Other observations

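The 5 cells of other lineages, in no comparison, all lacked Epor and Bcl2l1 and all listed Mcl1, at 22.4 to 360.2 RPKM with a median of 72.8 RPKM. The highest value was in cell 54, which met the mast cell or basophil list and had Prss34, a basophil protease gene, at 45416 RPKM. Jak2 was detected in 4 of the 5, up to 56.2 RPKM in the same cell, above every value of the globin and Mpo-high groups. Casp8 had 222 RPKM in cell 3, and Bcl2l11 was at 14.1 RPKM in cell 56, the cell of the T or NK list, and at 5.13 RPKM in another.

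Kit, the stem cell factor receptor that acts beside Epor in early red cell progenitors, was at or above 1 RPKM in 0 of 3 globin-low, 0 of 9 globin-mid and 0 of 43 globin-rich cells and in 3 of 9 Mpo-high cells. Values under 1 RPKM reached 0.810 RPKM in globin-low and 0.775 RPKM in globin-rich cells.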
